A study of Mus musculus with 9 samples.

Results

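The genes described here are those whose levels stood apart in epididymal adipose tissue 1 week into weight loss. They were chosen by a rule on the read counts: in log2 CPM (reads scaled to a common library size as CPM, on a log2 scale), the 3 libraries at WL1 all lay above, or all lay below, the 6 libraries of the phases before and after. Of the 18510 genes that reached 0.5 CPM in 1 or more libraries, 1708 met the rule. In 1059 of them WL1 was the highest phase (5.72% of the genes tested), and in 649 it was the lowest (3.51%). The rule uses the WL1 libraries against both flanking phases, so the differences between WL1 and the other phases are given below as a description. Counts of genes past a test of that contrast are given below and again by processing, with nothing read from them. Passing it also served to choose named genes. The test reported is that of WL2 against Pre.

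The libraries came from male wild-type C57BL/6J mice that were 8 weeks old when feeding began. All mice received a high-fat diet (HFD) for 8 weeks. Tissue was taken at that point (Pre), or after a further 1 week (WL1) or 2 weeks (WL2) of standard diet (SD), on which the mice lost weight. Bulk RNA was sequenced in 3 libraries per phase. The labels number the libraries without saying that each came from a separate mouse, so p-values measure the spread between these libraries, which may in part be technical. Mice kept on HFD for the same time are not analysed here, so the change of diet and the passing of time cannot be told apart.

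Adipocytes of obese mice store triglyceride and, on weight loss, release it by lipolysis. Macrophages gather around dying adipocytes, take up the lipid and cell debris, and break them down in lysosomes, acidic organelles kept at low pH by a proton pump. Macrophages that are loaded with lipid in this way express *Trem2*, *Gpnmb* and lysosomal genes, and they can fuse into giant cells with the same membrane proteins that fuse osteoclasts. Adipocytes are also a main site of fatty acid synthesis and of the breakdown of branched-chain amino acids, which takes place in mitochondria.

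Between 16434450 and 22729072 reads were counted per library. The tissue showed adipocyte markers in all libraries, and none of 15 genes typical of epididymis reached the minimum level. Summed over 20 macrophage genes, the level was 2350 to 4393 CPM at Pre, 4371 to 7984 CPM at WL1 and 2520 to 4527 CPM at WL2. Summed over 20 adipocyte genes, it was 44597 to 58336 CPM at Pre, 30171 to 39869 CPM at WL1 and 49696 to 51992 CPM at WL2. The adipocyte sum at WL1 lay below all other libraries, whereas the macrophage sum of WL1 replicate 1 lay within the range of the others. In bulk tissue, fewer cells of a type and less RNA per cell cannot be told apart. Summed B cell genes ranged from 1149 to 4083 CPM at Pre, from 224 to 384 CPM at WL1 and from 224 to 415 CPM at WL2, and none of the 14 B cell genes was among the 1708. Hepatocyte genes were not among them either. In sum they held 13.3, 68.3 and 114.2 CPM at Pre, 119.5, 4.82 and 13.8 CPM at WL1 and at most 7.64 CPM at WL2.

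**Figure D1:**
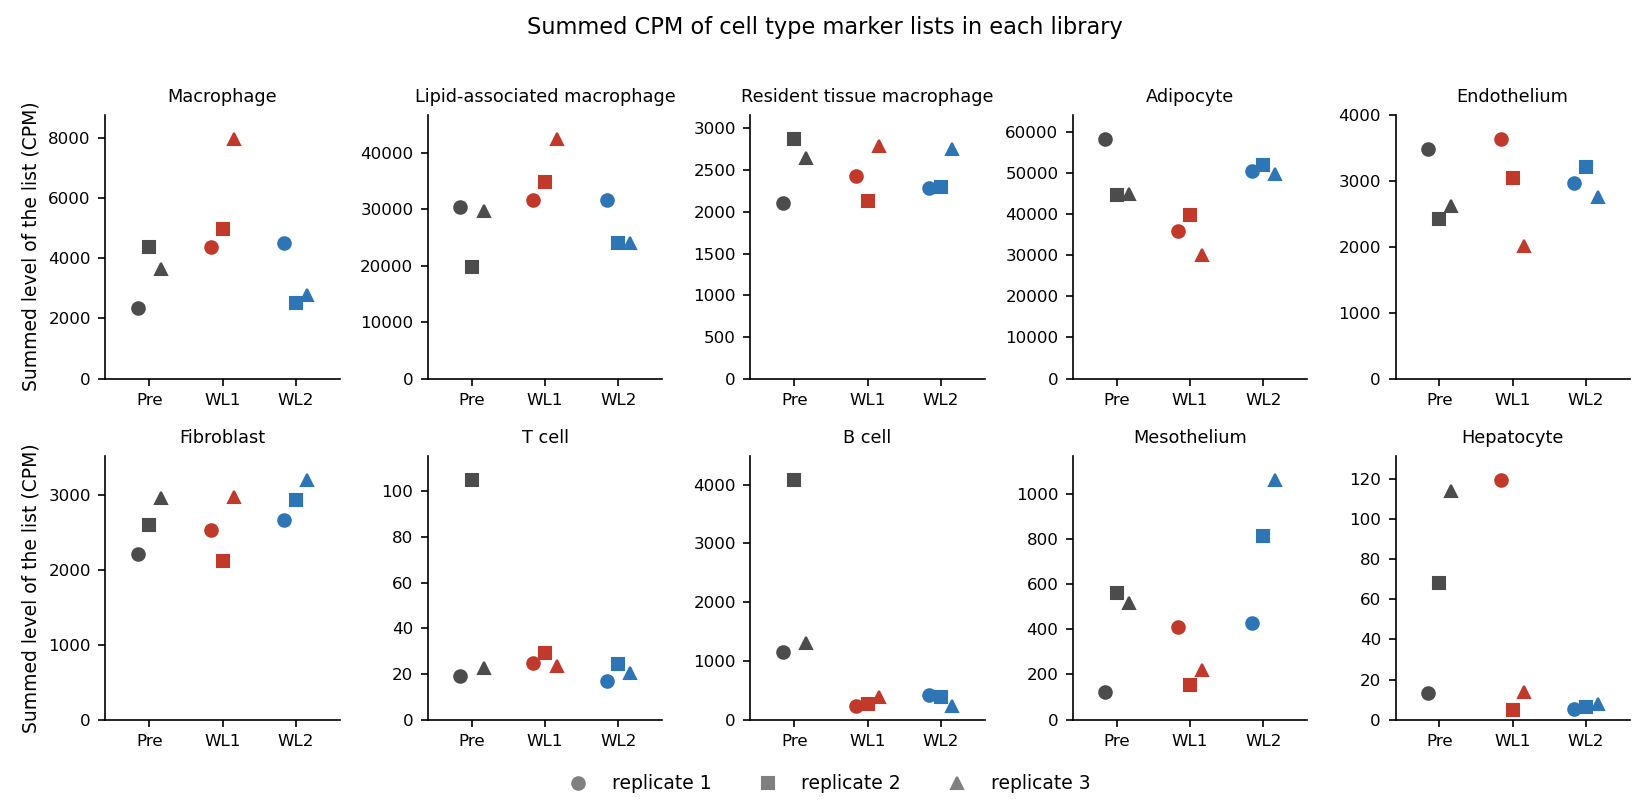
Summed CPM of the tested genes of 10 cell type marker lists in each of the 9 libraries, by phase (Pre, WL1, WL2), with 1 symbol per replicate number and axes that start at 0. The adipocyte sum is lowest in the 3 WL1 libraries (30171 to 39869 CPM), and the macrophage sum is highest in WL1 replicate 3 (7984 CPM).

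The median log2 fold change of the genes above, in the contrast of WL1 with the average of the 2 flanking phases, was 0.70, and 327 of 1059 were at least 2-fold higher. For the genes below, the median was -0.52, and 98 of 649 were at least 2-fold lower. The contrast passed the adjusted threshold of 0.05 of edgeR's quasi-likelihood test in 421 of the 1059 genes above and in 224 of the 649 below, while over all genes tested 2.81% passed it as higher and 1.77% as lower. With DESeq2 it passed in 662 above and 417 below, and over all genes tested in 5.42% as higher and 4.57% as lower. The genes were chosen on the same values, so these counts are no evidence about them. The edgeR counts were 116 and 122 without Pre replicate 1, 3 and 7 without WL1 replicate 1, 35 and 59 without WL1 replicate 2, 4 and 9 without WL1 replicate 3, 18 and 36 without WL2 replicate 2, and 41 and 69 without WL2 replicate 3. Protein-coding genes made up 92.0% of the genes above and 84.6% of those below, against 79.7% of all genes tested. The median level was 25.5 CPM for the genes above and 30.3 CPM for those below, against 13.1 CPM for all genes tested, and a gene at a low level has a wider counting error.

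WL1 replicate 3 and WL2 replicate 1 stood out among the libraries. WL1 replicate 3 was the highest library in 752 of the 1059 genes above and the lowest in 339 of the 649 below. The median gene above lay 0.83 log2 units over the mean of Pre and WL2 in that library, against 0.58 in WL1 replicates 1 and 2. Of the 6 other libraries, WL2 replicate 1 was nearest to WL1 in 416 of the genes above, where its median difference was 0.17, against -0.13 and -0.07 in WL2 replicates 2 and 3. Leaving out a library relaxes the rule, with TMM factors computed again each time. Without WL1 replicate 1, 1697 genes lay above and 1078 below, and without WL1 replicate 2, 1234 lay below. Without WL2 replicate 1 the counts were 1454 and 871.

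**Figure D2:**
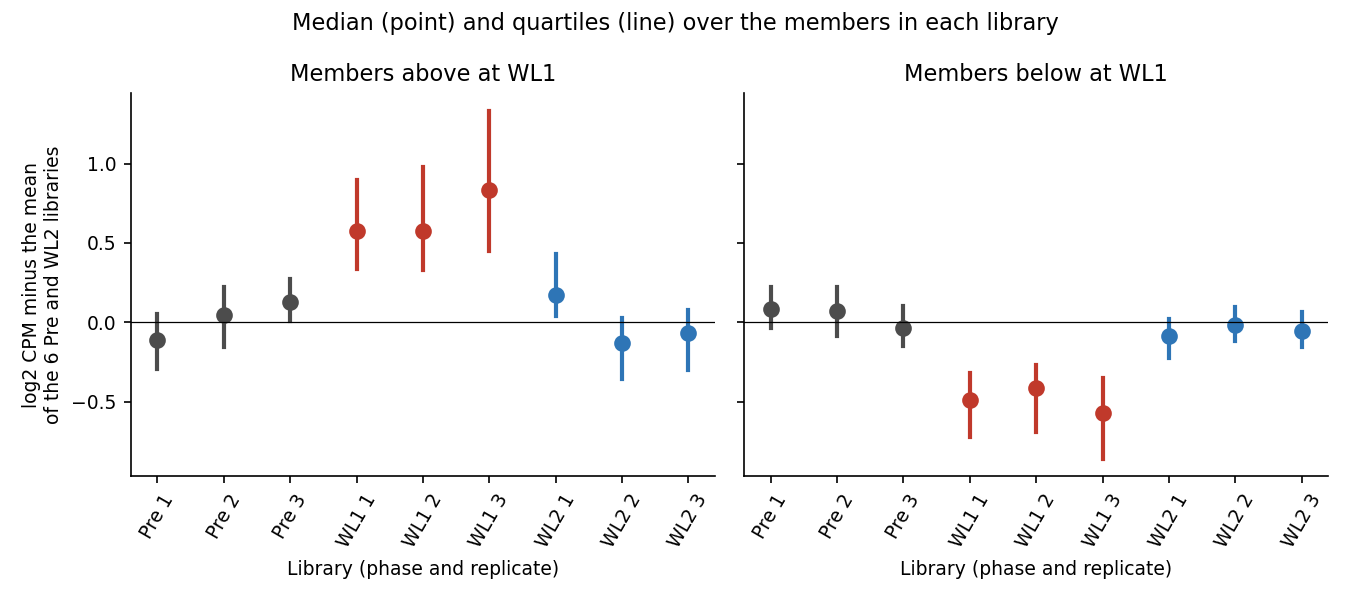
Difference of each library from the mean of the 6 Pre and WL2 libraries in log2 CPM, over the 1059 genes above (left) and the 649 genes below (right), with the median as a point and the quartiles as a line. The WL1 libraries are apart by construction of the rule, WL1 replicate 3 most for the genes above (0.83), and WL2 replicate 1 lies nearest to WL1 (0.17).

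The rule has a sharp edge. Among genes of at least 1 CPM, *Myl12b* was just inside it: its lowest WL1 library held 8.38 CPM and its highest other library 8.38 CPM, equal at this rounding. *Zfp469* was just outside, with 4.13 CPM in its lowest WL1 library and 4.13 CPM in Pre replicate 2. On the other side, *Anapc16* was just inside, with 65.3 CPM in its highest WL1 library and 65.3 CPM in Pre replicate 2. The immunoglobulin segment *Igkv8-28* was just outside, listed at 0 in all WL1 libraries and in 3 others.

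The genes with the highest WL1 level relative to the other phases included genes of giant cells and osteoclasts. Of 16 tested genes for macrophage fusion and osteoclast function, 8 lay above and 0 below, with a median contrast of 1.22, against 0.01 over all genes tested. In all, 13 had a positive contrast. Outside the rule, *Siglec15* (2.06) and *Tcirg1* (1.16) were higher at WL1. *Acp5* (-0.03), *Nfatc1* (0.08), *Src* (0.06), *Itgb3* (-0.06), *Cd47* (0.02) and *Mmp9* (-1.01) were not. *Tm4sf19*, a membrane protein of macrophages and osteoclasts, held 3.66, 5.79 and 7.80 CPM at Pre, 32.7, 34.6 and 68.5 CPM at WL1 and 23.6, 4.93 and 6.95 CPM at WL2. WL1 replicate 3 was highest by far, and WL2 replicate 1 was several times higher than the other WL2 libraries without reaching the WL1 levels. *Atp6v0d2*, a subunit of the proton pump that macrophages and osteoclasts use, showed the same order: 33.9, 42.4 and 71.4 CPM at Pre, 193, 217 and 380.2 CPM at WL1 and 176, 49.0 and 49.6 CPM at WL2. The fusion proteins *Dcstamp* and *Ocstamp* were measured at low levels. *Dcstamp* held 3.24, 3.20 and 4.01 CPM at Pre, 8.90, 11.3 and 15.4 CPM at WL1 and 8.16, 4.47 and 2.37 CPM at WL2, and *Ocstamp* lay at 2.44, 3.77 and 4.83 CPM at WL1 against at most 1.59 CPM elsewhere. The collagen-degrading protease *Ctsk* reached 161, 192 and 389.5 CPM at WL1, with 66.4, 68.9 and 85.6 CPM at Pre and 140.0, 53 and 52.8 CPM at WL2.

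**Figure D3:**
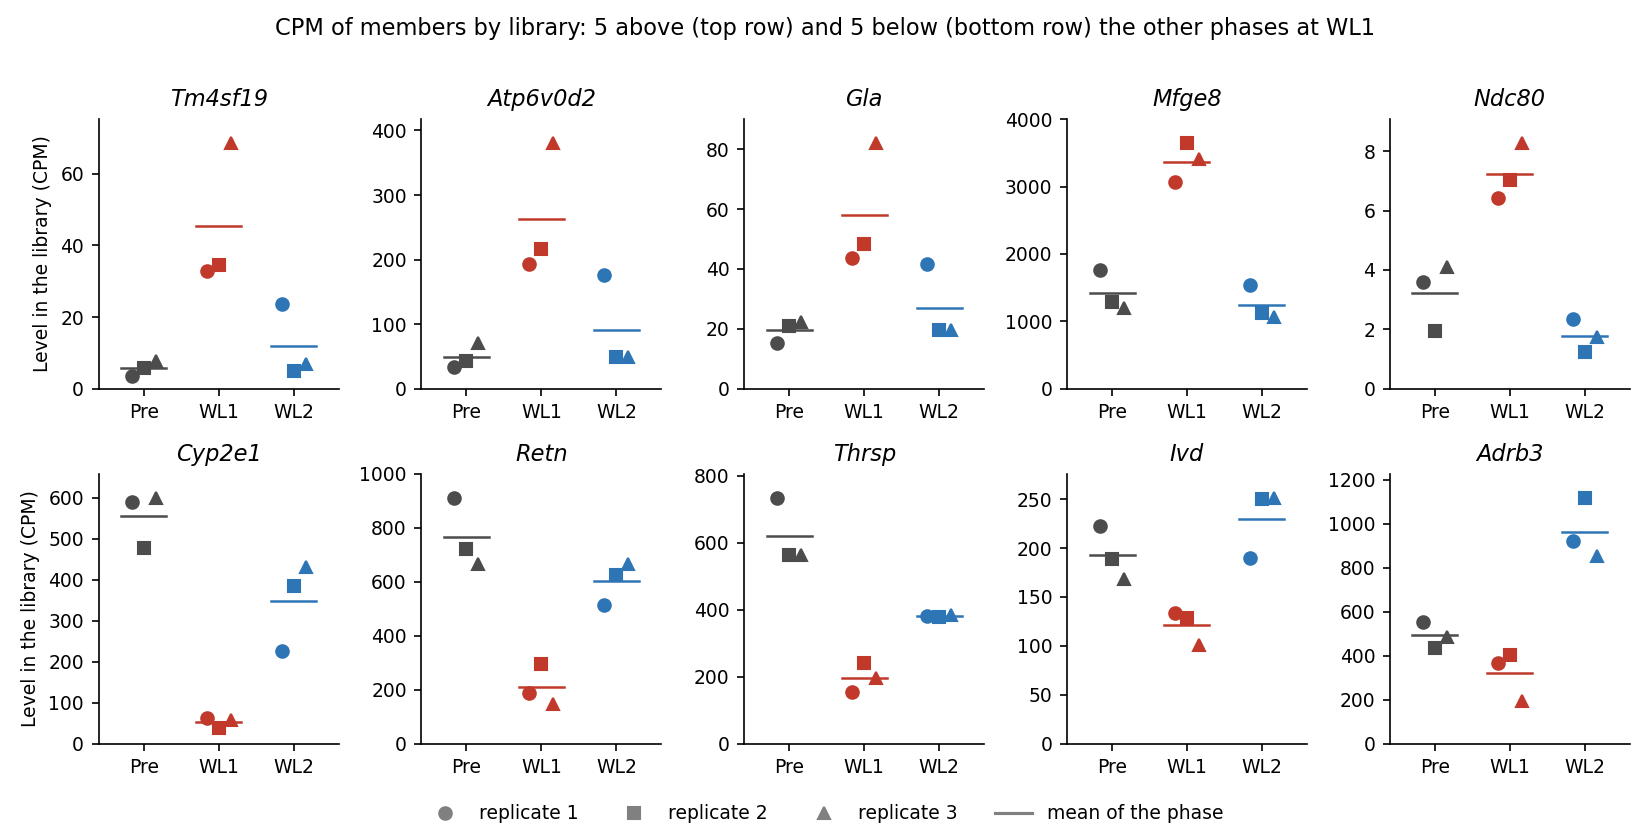
CPM of 10 of the genes in each library, by phase, with 1 symbol per replicate number, a line at the mean of the phase and axes that start at 0. In the top row *Tm4sf19*, *Atp6v0d2*, *Gla*, *Mfge8* and *Ndc80* are highest at WL1, and in the bottom row *Cyp2e1*, *Retn*, *Thrsp*, *Ivd* and *Adrb3* are lowest at WL1.

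Genes of lipid-associated macrophages lay higher at WL1 as a group, but many overlapped through WL2 replicate 1. Of 25 tested genes, 8 lay above and 0 below, and 23 had a positive contrast, with a median of 1.25. *Atp6v0d2*, *Ctsk* and *Dcstamp* were among the 8 and are also counted in the fusion list, so the lists are not separate. Without WL2 replicate 1, 21 of the 25 lay above, and without WL1 replicate 1, 16 did. *Gpnmb*, a glycoprotein of lipid-laden macrophages, missed the rule for this reason: 269, 556 and 572 CPM at Pre, 1494, 1773 and 3577 CPM at WL1 and 1752, 454 and 458 CPM at WL2, where replicate 1 exceeded the lowest WL1 library. *Syngr1* missed it in the same way, with 16.4 CPM in WL1 replicate 1 and 18.7 CPM in WL2 replicate 1. The summed level of this list was 19680 to 30341 CPM at Pre, 31677 to 42440 CPM at WL1 and 23911 to 31628 CPM at WL2. This sum did not follow the macrophage genes alone. Pre replicate 1 had the highest sum of the list at Pre (30341 CPM) and the lowest sum of macrophage genes (2350 CPM). The list holds *Lpl* and *Cd36*, with contrasts of 0.14 and 0.19. The part of the summed macrophage level in the values of single genes was not tested.

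Of 20 general macrophage genes, 5 lay above and 0 below (median contrast 0.70), and 8 lay above without WL1 replicate 1 and also without WL2 replicate 1. *Adgre1*, which encodes the F4/80 antigen, held 67.4, 141 and 136 CPM at Pre, 225, 243 and 452 CPM at WL1 and 199, 89.8 and 93.5 CPM at WL2. Its WL1 libraries did not overlap the others, but WL2 replicate 1 lay close to the lowest of them. Of 15 genes of resident tissue macrophages, 0 lay above and 2 below, with a median contrast of -0.69. In all, 5 had a positive contrast, among them *Clec10a* (0.52) and *Mrc1* (0.48). The summed level of the 15 overlapped between the phases, at 2102 to 2876 CPM at Pre, 2126 to 2790 CPM at WL1 and 2288 to 2751 CPM at WL2. The 2 genes below were *Gas6*, a ligand that bridges dying cells to phagocytes, and *Cbr2*, a carbonyl reductase. *Cbr2* held 42.1, 83.9 and 54.1 CPM at Pre, 30.5, 27.1 and 26.6 CPM at WL1 and 34.9, 43.2 and 53.4 CPM at WL2. With library totals 1 of the 15 lay below. The count was 5 without Pre replicate 1 or WL1 replicate 1 and 4 without WL2 replicate 1.

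Lysosomal genes of several functions were among those above, with smaller median contrasts for membrane proteins and the proton pump than for hydrolases. Of 42 lysosomal hydrolases and their cofactors, 12 lay above and 0 below, and 38 had a positive contrast (median 0.42). *Gla*, the alpha-galactosidase that removes galactose from glycolipids, held 15.2, 20.8 and 22.4 CPM at Pre, 43.6, 48.5 and 82.0 CPM at WL1 and 41.6, 19.7 and 19.6 CPM at WL2. *Lipa*, the acid lipase that frees fatty acids and cholesterol from lipid taken up by the cell, held 177, 262 and 264 CPM at Pre, 536, 579 and 915 CPM at WL1 and 483, 206 and 194 CPM at WL2. For both, WL2 replicate 1 lay just under the lowest WL1 library while WL2 replicates 2 and 3 lay in the range of Pre. *Psap*, the precursor of the saposins that assist glycolipid breakdown, reached 5636, 6334 and 9120 CPM at WL1, against 3344, 4289 and 4078 CPM at Pre and 4960, 2818 and 2787 CPM at WL2. The count of 12 was sensitive to the processing: it was 24 without WL1 replicate 1, 21 without WL2 replicate 1, and 7 with the filter of 0.5 CPM in at least 3 libraries.

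Among 27 lysosomal membrane proteins and their regulators, 5 lay above (18.5%) and 1 below, and 22 had a positive contrast (median 0.23). Among 18 subunits of the proton pump, 3 lay above (16.7%) and 0 below, and 17 had a positive contrast (median 0.23). The share above over all genes tested was 5.72%. Several widely named members changed little, such as *Lamp1* (contrast 0.22), *Lamp2* (0.19), *Atp6v1e1* (0.01) and *Atp6v0d1* (0.04). *Mitf*, a transcription factor of the MiT/TFE family that drives lysosomal genes, held 14.0, 17.9 and 20.2 CPM at Pre, 36.7, 32.2 and 48.7 CPM at WL1 and 28.0, 19.6 and 19.6 CPM at WL2. The WL1 libraries all lay above the others, by the smallest margin against WL2 replicate 1. Its relatives in the list did not meet the rule (contrast of 0.56 for *Tfeb* and 0.14 for *Tfe3*). *Slc37a2*, a sugar phosphate transporter of macrophages and osteoclasts, held 163, 181 and 288 CPM at WL1 against at most 112 CPM elsewhere. *Clcn7*, the chloride-proton exchanger of the lysosome, held 72.2, 87.0 and 80.2 CPM at Pre, 108, 115 and 156 CPM at WL1 and 104, 70.6 and 75.5 CPM at WL2. The catalytic pump subunit *Atp6v1a* held 147, 178 and 187 CPM at Pre, 236, 261 and 373 CPM at WL1 and 220.3, 123 and 128 CPM at WL2. The membrane list counted 10, 8 and 12 above without WL1 replicate 1, WL1 replicate 2 and WL2 replicate 1, and the pump list 7 and 6 without WL1 replicate 1 and WL2 replicate 1.

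MiT/TFE factors bind a palindromic E-box, so promoters were searched for the letters TCACGTG on both strands. The sequences came from RefSeq (GRCm38.p6) and covered 250 bases before to 50 bases after each start site. Of the 20 genes above in these 3 lysosomal lists, 16 had an entry and 4 held the motif (*Atp6v1a*, *Clcn7*, *Ctsa* and *Gla*), against 3.77% of all 32851 promoters, 1237 in number. These measures are not alike. A gene was counted if any of its promoters held the motif, while the share counts single promoters of the whole reference, not of the genes tested. Only 79.2% of the protein-coding genes of the rule had a promoter by symbol, under the 80% needed, so no share over all of them is given. The 250 bases before the start site of 3 of the 4 are shown because their levels are described above, with the motif in capitals (TCACGTGA where both strands match). *Gla* lies on the minus strand at chrX:134601006-134601255, *Clcn7* on the plus strand at chr17:25133141-25133390 and *Atp6v1a* on the minus strand at chr16:44139260-44139509. The motif begins 228 and 195 bases before the start site in *Gla*, 16 in *Clcn7* and 132 in *Atp6v1a*.
Gla: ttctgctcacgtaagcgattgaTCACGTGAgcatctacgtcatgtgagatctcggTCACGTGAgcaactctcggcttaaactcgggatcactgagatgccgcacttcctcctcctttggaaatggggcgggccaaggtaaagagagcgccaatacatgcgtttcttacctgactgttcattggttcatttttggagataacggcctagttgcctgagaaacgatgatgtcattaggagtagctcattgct
Clcn7: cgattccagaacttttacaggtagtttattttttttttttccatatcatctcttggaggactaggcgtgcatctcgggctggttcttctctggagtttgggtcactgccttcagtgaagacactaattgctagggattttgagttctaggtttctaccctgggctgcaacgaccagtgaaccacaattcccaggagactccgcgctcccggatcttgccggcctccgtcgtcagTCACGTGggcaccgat
Atp6v1a: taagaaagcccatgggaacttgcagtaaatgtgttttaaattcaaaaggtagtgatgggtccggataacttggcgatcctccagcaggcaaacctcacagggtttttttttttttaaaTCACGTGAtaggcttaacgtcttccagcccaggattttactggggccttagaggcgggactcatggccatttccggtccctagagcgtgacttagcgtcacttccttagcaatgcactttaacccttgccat
A match of letters is a description and says nothing about binding in this tissue.

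Receptors that macrophages use to sense antibody, sugars and other cells were among the genes above. Of 28 tested Fc, lectin and signal-regulatory receptors, 10 lay above and 0 below (median contrast 1.16), 17 without WL1 replicate 1 and 18 without WL2 replicate 1. *Cd300lb*, an activating receptor of myeloid cells, held 22.6, 35.1 and 43.7 CPM at Pre, 81.5, 93.5 and 153 CPM at WL1 and 65.0, 24.4 and 22.6 CPM at WL2. *Sirpb1c* and *Sirpb1b* lay above at 3.09, 4.22 and 6.47 and at 2.39, 2.85 and 3.71 CPM, but their sequences are close to each other and the counting may have split their reads. *Fcgr4* and *Cd300ld* overlapped the other phases through WL2 replicate 1 alone.

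*Mfge8*, a secreted protein that links dying cells to phagocytes, held 1762, 1284 and 1201 CPM at Pre, 3061, 3642 and 3405 CPM at WL1 and 1539, 1120 and 1061 CPM at WL2. The lowest WL1 library lay far over the highest of the 6 others, and WL2 replicate 1 was within the range of Pre. Of 21 scavenger and efferocytosis receptors and ligands, 2 lay above, *Mfge8* and the integrin *Itgav*, and *Gas6* lay below; without Pre replicate 2, WL1 replicate 2 or WL2 replicate 1, 5 lay above, without Pre replicate 1, 2 lay below, and 1 lay above from FPKM. For cholesterol and lipid handling, 4 of 21 genes lay above and 1 below. The 3 with the largest contrast were *Nceh1*, which hydrolyses cholesterol esters, *Soat1*, which makes them, and *Pltp*, which transfers phospholipid. *Nceh1* held 28.2, 51.6 and 58.3 CPM at Pre, 109.7, 129 and 204 CPM at WL1 and 101, 34.7 and 42.9 CPM at WL2. The gene below was *Pparg*, the transcription factor of adipocyte identity, with a contrast of -0.43, and with library totals in place of TMM factors it was 0 of 21.

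The shares above of cytokines (3.70%), interferon-stimulated genes (4.55%) and immediate early genes (8.70%) stood beside 5.72% of all genes tested. Of 27 cytokines, only *Tnf* lay above, at 1.42, 1.71 and 1.61 CPM at Pre, 3.09, 3.17 and 3.88 CPM at WL1 and 1.26, 1.30 and 1.51 CPM at WL2, and 4 lay above without WL2 replicate 1, 3 without Pre replicate 2 or WL1 replicate 1 and 2 without Pre replicate 1. None of 31 chemokines and chemokine receptors met the rule. Of 23 immediate early genes, *Fos* and *Egr2* lay above, and *Atf3*, a stress-induced transcription factor, overlapped through WL2 replicate 1 (134 CPM against 122 CPM in WL1 replicate 1). The count of immediate early genes was 4 without Pre replicate 2 and 5 without WL1 replicate 2. Of 22 interferon-stimulated genes, *Oas1a* alone lay above, and 2 did without Pre replicate 2 and 3 without WL1 replicate 3. Iron handling gave 3 of 18 above, *Slc11a1*, *Hmox1* and *Blvra*, which move iron out of the phagosome and break down haem.

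Matrix proteases were among the genes above, while collagens were not. Of 24 matrix metalloproteinases, related proteases and inhibitors, 5 lay above (8 without Pre replicate 3, 9 without WL1 replicate 1) and *Timp4*, an inhibitor, lay below. *Adam8*, a cell-surface protease of myeloid cells, held between 61.3 and 108 CPM at Pre, 249.7, 296 and 522 CPM at WL1 and 238, 68.4 and 66.5 CPM at WL2. *Mmp2*, a gelatinase, held 78.5, 61.6 and 129.8 CPM at WL1, of which the second lay nearest to the highest Pre library at 57.0 CPM. None of 32 collagens and collagen-modifying enzymes met the rule (median contrast 0.12). In the test described below, 19 of them fell at WL2 against Pre, beside 6.66% of all genes tested.

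Of 38 tested cell division genes 22 lay above and 0 below, the largest share above of the lists, and all 38 had a positive contrast (median 0.91). *Ndc80*, a kinetochore protein that holds chromosomes to the spindle, was measured at 3.60, 1.93 and 4.11 CPM at Pre, 6.41, 7.03 and 8.27 CPM at WL1 and 2.35, 1.25 and 1.74 CPM at WL2. *Bub1*, a kinase of the spindle checkpoint, lay at 2.36, 2.04 and 3.23 CPM at Pre, 5.97, 4.91 and 4.72 CPM at WL1 and 3.18, 0.510 and 1.39 CPM at WL2. *Ccnb1*, the cyclin that starts mitosis, lay at 5.72, 7.33 and 5.17 CPM at Pre, 7.55, 11.5 and 10.7 CPM at WL1 and 5.86, 1.36 and 0.753 CPM at WL2. In all of them WL2 replicates 2 and 3 were the lowest of the 9 libraries. *Ube2c*, which ubiquitinates proteins at the end of mitosis, missed the rule: 16.9, 14.5 and 14.4 CPM at Pre, 13.7, 18.2 and 17.8 CPM at WL1 and 6.90, 4.64 and 4.46 CPM at WL2.

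Several protein-coding genes with the largest contrast were near the limit of detection or are best known outside fat. *S100g*, a calcium-binding protein, held 1.57, 1.38 and 0.900 CPM at WL1 and at most 0.331 CPM elsewhere. The membrane protein *Ptchd1* and the glutamate transporter *Slc17a8* lay between 0.918 and 2.23 CPM in the WL1 libraries. *Hmga2*, a chromatin protein of growing mesenchymal cells, held 0, 0.661 and 0.369 CPM at Pre, 1.79, 2.80 and 3.94 CPM at WL1 and 1.09, 0.340 and 0.405 CPM at WL2. Genes named for neurons were also present: *Cntn2*, a cell adhesion protein, held 1.71, 2.37 and 2.45 CPM at Pre, 10.4, 6.34 and 11.1 CPM at WL1 and 2.68, 1.59 and 0.753 CPM at WL2. *Nptx1* and *Chd5* were also highest at WL1 (3.69, 3.17 and 4.95 and 5.54, 4.45 and 8.04 CPM at WL1), as were the protease *Prss46* (2.55, 2.11 and 3.26 CPM) and *Gm19345* (0.814, 1.19 and 1.57 CPM). *Hpgds*, which makes prostaglandin D in myeloid cells, held 9.08, 7.66 and 18.4 CPM at Pre, 54.0, 52.5 and 97.2 CPM at WL1 and 42.8, 17.1 and 13.8 CPM at WL2. Of the long noncoding genes, *4930430E12Rik* held 1.30, 1.27 and 2.58 CPM at Pre, 7.22, 7.90 and 16 CPM at WL1 and 5.86, 0.906 and 1.27 CPM at WL2.

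*Cyp2e1*, a cytochrome P450 that oxidises ethanol, acetone and fatty acids, held 589, 478 and 599.5 CPM at Pre, 63.5, 38.2 and 58.4 CPM at WL1 and 226, 386 and 431 CPM at WL2. The phases did not overlap, and WL1 was 8.24-fold lower than the mean of the others (log2 fold change -3.04, SE 0.25). *Retn*, the adipokine resistin, held 910.0, 723 and 668 CPM at Pre, 187, 297 and 149 CPM at WL1 and 515, 626 and 666 CPM at WL2. The glutathione S-transferases *Gsta3* and *Gsta4*, which conjugate lipid peroxidation products, were also lowest at WL1. *Gsta3* held 58.6, 56.5 and 58.4 CPM at Pre, 25.7, 27.0 and 17.3 CPM at WL1 and 58.0, 89.6 and 101 CPM at WL2. *Gsta4* held 6.96, 9.31 and 7.75 CPM at Pre, 4.13, 2.48 and 3.65 CPM at WL1 and 13.6, 16.9 and 19.1 CPM at WL2, with every WL2 library over every Pre library. *Anxa8*, a calcium-dependent membrane-binding protein, and *Il17re*, a receptor chain for interleukin 17, were lowest at WL1 too (4.51, 2.71 and 3.60 and 3.85, 1.75 and 2.31 CPM). *Car1*, *Asb12*, *Cacna2d3*, *Odf3l1* and *Gm7609* were also among the 12 protein-coding genes below with the largest contrast, and these 5 lay under 2 CPM in every WL1 library. Of the long noncoding genes, *Gm10076* held 25.7, 25.1 and 21.8 CPM at Pre, 6.03, 8.72 and 12.7 CPM at WL1 and 20.4, 28.3 and 56.1 CPM at WL2, and *Gm44386* lay at 0.597, 0.459 and 0.225 CPM at WL1.

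Adipokine and lipid droplet genes lay below in part. Of 26 genes of lipolysis, lipid droplets and adipokines, 8 lay below and 0 above (median contrast -0.42). *Rbp4*, a retinol carrier secreted by fat and liver, held 586, 528 and 440.3 CPM at Pre, 177, 219 and 144 CPM at WL1 and 270.2, 335 and 340.0 CPM at WL2. *Adrb3*, the adrenergic receptor that starts lipolysis in adipocytes, held 553, 438 and 487 CPM at Pre, 366, 401 and 192 CPM at WL1 and 923, 1117 and 852 CPM at WL2. WL1 was lowest, and WL2 was higher than Pre in every library. The lipid droplet proteins *Plin1* and *Cidec* and the growth factor *Nrg4* were among the others (contrasts of -0.50, -0.51 and -1.03), while leptin (*Lep*, contrast 0.18) and *Adipoq* (-0.55) did not meet the rule. Of 20 adipocyte markers 7 lay below, and the summed level of all 20 lay below the other phases as given above. Its part in the lower levels of these genes was not tested. The gene above in that list was *Lipa*, which lysosomes of all cells use.

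Fatty acid synthesis showed 7 of 30 genes below and 0 above (median contrast -0.41). *Thrsp*, a regulator of lipogenesis, held 733, 564 and 564 CPM at Pre, 155, 240.1 and 196 CPM at WL1 and 382, 379 and 385 CPM at WL2. *Scd1*, the main desaturase of fat, held 20657, 22813 and 22553 CPM at Pre, 9498, 7868 and 6498 CPM at WL1 and 10539, 12025 and 18330 CPM at WL2. *Pnpla3*, a lipase induced by feeding, held 352, 226 and 346 CPM at Pre, 59.6, 72.5 and 66.0 CPM at WL1 and 72.8, 100.4 and 102 CPM at WL2, so that WL2 stayed close to WL1. It met the rule by a narrow gap between WL1 replicate 2 and WL2 replicate 1. The other 4 were *Acaca*, *Gpam*, *Aacs* and *Lpin1*, which make malonyl-CoA, lysophosphatidic acid, acetoacetyl-CoA and diacylglycerol. *Acss2* and *Slc25a1*, which supply acetyl-CoA and citrate, did not meet the rule because WL1 and WL2 overlapped. At WL2, 16 of the 30 genes were lower than at Pre and 1 was higher in the edgeR test described below. Over all genes tested, 6.66% were lower and 3.35% higher. Of 24 cholesterol synthesis and uptake genes, only *Acat2* lay below (2 without WL1 replicate 2), with 63.2, 49.5 and 60.5 CPM at Pre, 21.4, 30.4 and 26.9 CPM at WL1 and 34.9, 36.9 and 36.2 CPM at WL2. Of 28 genes of glucose uptake and insulin signalling, 3 lay below, the glucose transporter *Slc2a3*, the kinase *Akt2* and the transcription factor *Foxo1* (6 without WL1 replicate 1 or WL2 replicate 1, 5 without WL1 replicate 2).

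Most genes listed for the breakdown of branched-chain amino acids lay below. Of 21 tested genes, 14 lay below and 0 above, and none had a positive contrast (median -0.46). The 14 included *Bckdk*, a kinase that restrains the pathway and is not one of its enzymes. *Ivd*, which oxidises the isovaleryl-CoA of leucine, held 223, 189 and 168 CPM at Pre, 134, 129 and 101 CPM at WL1 and 189.5, 249.7 and 251 CPM at WL2. *Aldh6a1*, an enzyme of valine breakdown, held 344, 310.4 and 281 CPM at Pre, 256, 242 and 189 CPM at WL1 and 402, 513 and 509 CPM at WL2. *Mccc2*, a subunit of the carboxylase in the leucine pathway, held 81.8, 72.1 and 71.2 CPM at Pre, 47.4, 51.0 and 37.7 CPM at WL1 and 72.3, 77.9 and 70.5 CPM at WL2. In *Ivd* and *Mccc2* the Pre and WL2 libraries overlapped and all WL1 libraries lay below them. The first enzymes of the pathway followed, with contrasts of -0.55 for the transaminase *Bcat2* and -0.36 for *Bckdha*, of which the latter did not meet the rule. The count of 14 held between 12, with library totals in place of TMM factors, and 17, without WL1 replicate 2.

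All 14 of these genes had a promoter entry, and 9 held the CCAAT box (letters CCAAT, both strands), which 37.4% of all promoters hold. Here too the list counts genes and the share counts promoters of the whole reference, so they are not alike. The bases before the start site are given for 2 of them whose levels are described above, with the letters CCAAT, or ATTGG on the other strand, in capitals. *Ivd* lies on the plus strand at chr2:118861744-118861993 and holds the letters in 4 places, the nearest 23 bases before the start site. *Mccc2* lies on the minus strand at chr13:100015640-100015889 and holds them in 2 places, the nearest of which joins a match on each strand.
Ivd: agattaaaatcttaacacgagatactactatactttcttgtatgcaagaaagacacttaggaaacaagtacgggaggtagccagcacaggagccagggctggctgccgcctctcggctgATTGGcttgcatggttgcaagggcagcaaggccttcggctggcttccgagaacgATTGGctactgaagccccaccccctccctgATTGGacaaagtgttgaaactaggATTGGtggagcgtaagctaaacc
Mccc2: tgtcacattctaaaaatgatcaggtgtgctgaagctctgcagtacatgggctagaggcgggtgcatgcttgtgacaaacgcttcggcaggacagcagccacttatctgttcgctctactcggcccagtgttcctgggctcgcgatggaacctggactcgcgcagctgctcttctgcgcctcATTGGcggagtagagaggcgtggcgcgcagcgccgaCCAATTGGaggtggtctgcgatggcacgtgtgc
The letters are short and frequent, and their presence says nothing about use in fat.

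Genes of the mitochondrial genome lay below in 9 of 13 cases, with 0 above (median contrast -0.72). *mt-Cytb*, a subunit of respiratory complex III, held 6830, 6566 and 5845 CPM at Pre, 3021, 3159 and 2810 CPM at WL1 and 3996, 4588 and 4894 CPM at WL2. *mt-Co2*, of complex IV, held 162, 104 and 77.0 CPM at Pre, 41.3, 51.6 and 53.6 CPM at WL1 and 69.2, 67.0 and 70.3 CPM at WL2. Transcripts of this genome made up 3.15% to 3.57% of the reads at Pre, 1.86% to 2.03% at WL1 and 2.28% to 2.88% at WL2. At WL2, 8 of the 13 were lower than at Pre in the same test, beside 6.66% of all genes tested. Nuclear copies and overlapping genes make single values of this genome, *mt-Atp6* and *mt-Atp8* above all, uncertain. Of 27 genes of fatty acid oxidation and thermogenesis, 5 lay below, among them *Ucp3*, a mitochondrial carrier, the coactivator *Ppargc1a* and the monocarboxylate transporter *Slc16a1*, and 2 lay above, *Cpt1a* and *Hadha* (1 from FPKM or with the filter of 3 libraries). *Ucp3* held 42.2, 32.5 and 29.8 CPM at Pre, 19.4, 21.1 and 14.9 CPM at WL1 and 38.5, 35.4 and 38.6 CPM at WL2. The Pre and WL2 libraries of *Ucp3* overlapped.

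**Figure D4:**
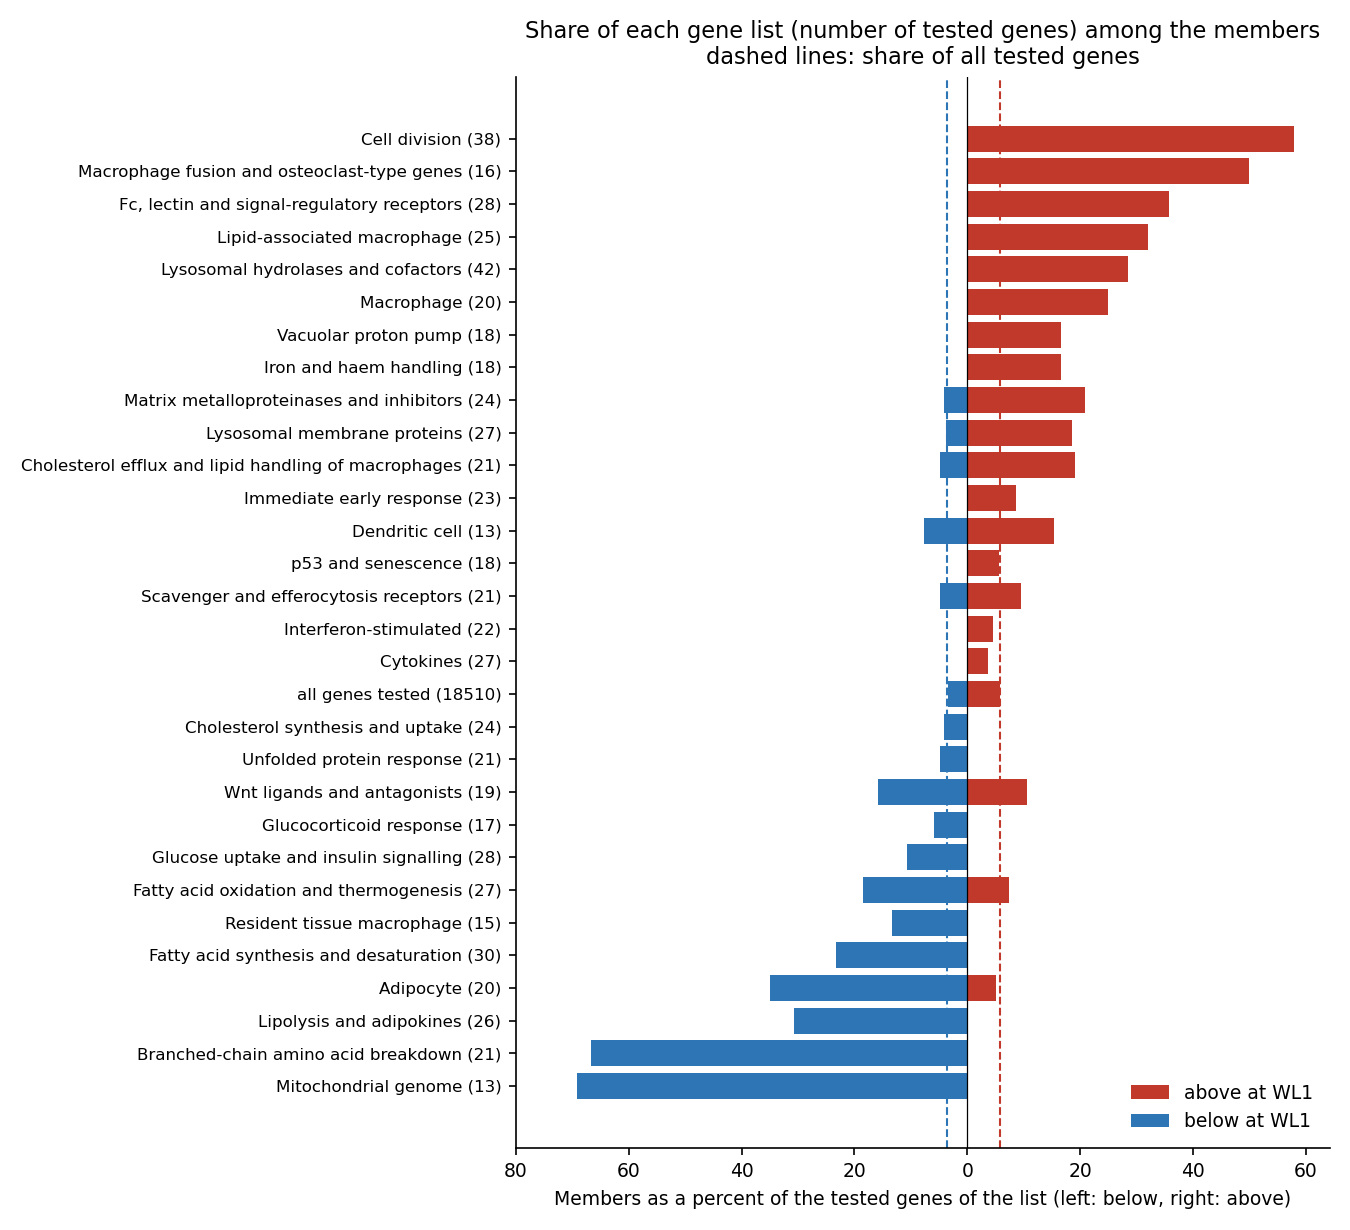
Percent of the tested genes of each list (number in brackets) whose WL1 libraries all lay above (red, to the right) or all lay below (blue, to the left) the 6 others, for lists of at least 10 tested genes with at least 1 such gene, with dashed lines at the shares of all genes tested (5.72% and 3.51%). Cell division has 57.9% above, and branched-chain amino acid breakdown and the mitochondrial genome have 66.7% and 69.2% below.

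Smaller groups gave few genes each, with unlike shares. Over all genes tested, 5.72% lay above and 3.51% below. The share was 10.5% above and 15.8% below for Wnt genes, 28.6% and 14.3% for neutrophil genes and 15.4% and 7.69% for dendritic cell genes. It was 5.88% below for glucocorticoid response, 5.56% above for p53 and senescence and 4.76% below for unfolded protein response genes. Wnt ligands and antagonists had 2 of 19 above and 3 below (5 without Pre replicate 1 or WL1 replicate 1), among them *Wnt5b* and *Wnt4* below. *Wnt4* at 0.118, 5.68 and 1.11 CPM at Pre was scattered over a wide range. Glucocorticoid response genes had 1 of 17, *Lcn2*, below (4 without WL1 replicate 3), p53 and senescence genes had *Igfbp3* above (3 without Pre replicate 3 or WL1 replicate 1, 2 without WL2 replicate 1), and unfolded protein response genes had *Asns* below (2 without WL1 replicate 3). Of 7 neutrophil genes, *Ltf* and *Csf3r* lay above and *Lcn2* below, and of 13 dendritic cell genes, *Cd83* and *Clec9a* lay above and *Cd209a* below (3 without WL2 replicate 1, 2 without WL1 replicate 2). From FPKM, 0 of the 13 dendritic cell genes lay above and 0 of the 7 neutrophil genes lay below. None of the 19 clock genes, 16 fibroblast genes, 15 endothelial genes, 14 mesothelial genes, 18 T cell genes, 14 mast cell and eosinophil genes, 12 smooth muscle genes or 8 skeletal muscle genes met the rule. The median contrast was -0.06 for endothelial, -0.14 for fibroblast, -0.15 for clock, -0.16 for mast cell and eosinophil, -0.19 for smooth muscle, -0.34 for T cell and 0.41 for skeletal muscle genes. For the B cell and hepatocyte genes, whose wide spread between libraries is given above, it was -1.80 and 1.98. It was -1.34 for mesothelial genes, of which 0 of 14 had a positive contrast, and their summed level was 123 to 559 CPM at Pre, 152 to 409 CPM at WL1 and 430 to 1061 CPM at WL2, so that Pre and WL1 overlapped.

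The measure that the rule did not use directly was the difference between WL2 and Pre. The rule still limits it, because both phases must lie on the same side of WL1. It was tested for all 18510 genes with edgeR's quasi-likelihood test, with p-values adjusted by Benjamini-Hochberg over all of them, and 10.0% passed the adjusted threshold (3.35% higher and 6.66% lower at WL2). Of the 1059 genes above, 29 passed, 8 higher and 21 lower at WL2, which is 2.74%. Of the 649 genes below, 62 passed, 9 higher and 53 lower, which is 9.55%. The 95% interval of the log2 fold change of WL2 against Pre lay within 2-fold in either direction in 739 of 1059 genes above (69.8%) and in 530 of 649 below (81.7%), against 56.1% of all genes tested. An interval within 2-fold does not show a return to the Pre level, as genes that passed the test, such as *Tut4* (interval 0.30 to 0.81), were among them.

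Placed on a scale on which Pre is 0 and WL1 is 1, the median gene above was at -0.0048 at WL2, and 94 of 1059 were midway or nearer to WL1. The median gene below was at 0.187, and 109 of 649 were midway or nearer to WL1. The scale uses the WL1 values that chose the genes, and the rule keeps every position under 1. No value over all genes tested stands beside these positions, so they are a description only. The number of genes passing at WL2 against Pre depended on single libraries. Among the genes above it was 3 without WL2 replicate 2, 6 without WL2 replicate 3, 15 without Pre replicate 1, 17 without WL1 replicate 2 and 49 without WL2 replicate 1. Among the genes below it was 22, 31 and 33 without the first 3 of these and 34 without WL2 replicate 1. DESeq2 called 49 genes above and 82 below, against 14.4% of all genes.

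**Figure D5:**
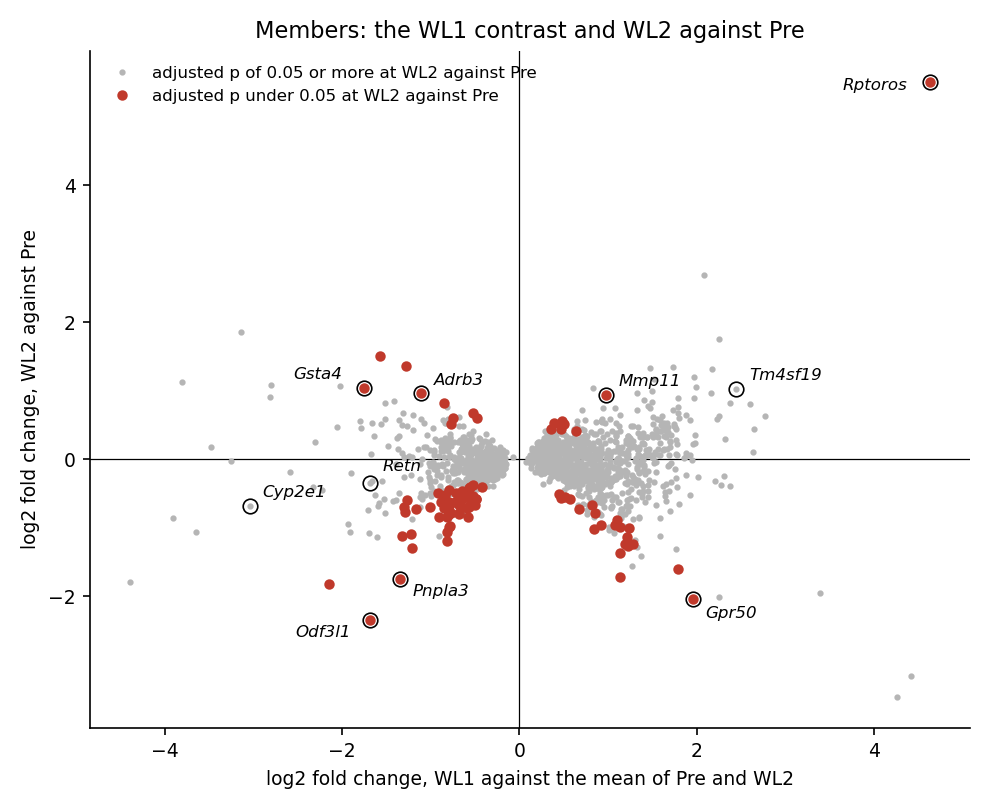
Log2 fold change of WL2 against Pre (vertical axis) against that of WL1 relative to the average of the other 2 phases (horizontal axis) for the 1708 genes, with genes past the adjusted threshold of 0.05 at WL2 against Pre in red. Of the genes on the right 29 are red, of which 21 fell, and of those on the left 62 are red, of which 53 fell; circled genes are named in the text, and the value of *Rptoros* rests on a phase at 0.

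The 21 genes that were highest at WL1 and fell below Pre at WL2 included 6 of the 22 cell division genes above (*Rrm2*, *Top2a*, *Ccna2*, *Kif20a*, *Kif11* and *Nusap1*). Their adjusted p in the edgeR test lay between 0.02713 (*Ccna2*) and 0.04985 (*Top2a*), near the threshold. Among all genes above, only 3 passed without WL2 replicate 2. Over the 38 tested cell division genes, 9 fell and 0 rose at WL2 against Pre, while 6.66% of all genes tested fell. The median change of the 38 was -0.81 on the log2 scale. The 3 others that fell, *Ube2c*, *Cdc20* and *Cenpf*, did not meet the rule. *Sgo2a*, which guards the cohesion of sister chromosomes, is not on that list and held 2.48, 1.71 and 2.68 CPM at Pre, 2.71, 2.94 and 2.70 CPM at WL1 and 1.04, 0.567 and 0.463 CPM at WL2 (log2 fold change -1.72, adjusted p = 0.0144), a call lost without WL2 replicate 2 or 3. *Gpr50*, an orphan receptor related to melatonin receptors, held 37.5, 31.3 and 39.3 CPM at Pre, 71.6, 60.9 and 74.1 CPM at WL1 and 14.2, 4.87 and 7.12 CPM at WL2 (log2 fold change -2.04, SE 0.31, adjusted p = 0.00249). The 3 phases did not overlap, and the call held with each library left out in turn. *Wif1*, a secreted inhibitor of Wnt ligands, was lower at WL2 by the same test (log2 fold change -1.60, adjusted p = 0.0488), a call that was lost without each of the 9 libraries in turn.

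Of the genes above, 8 were still higher at WL2 than at Pre. *Mmp11*, a matrix metalloproteinase of stromal cells, held 25.6, 17.3 and 20.6 CPM at Pre, 59.1, 57.4 and 56.5 CPM at WL1 and 43.1, 52.2 and 26.9 CPM at WL2 (log2 fold change 0.95 for WL2 against Pre, SE 0.22, adjusted p = 0.0238). The call was lost without Pre replicate 2 or 3 or WL2 replicate 1 or 2. *Tut4*, which adds uridines to RNA ends, held 14.2, 15.5 and 16.9 CPM at Pre, 25.9, 27.2 and 25.9 CPM at WL1 and 21.2, 23.6 and 23.7 CPM at WL2 (log2 fold change 0.55, adjusted p = 0.0131), a call lost without WL2 replicate 2 or 3. The long noncoding *Rptoros* had no read at Pre and held 0.977, 0.918 and 1.46 CPM at WL1 and 0.438, 0.113 and 0.347 CPM at WL2 (adjusted p = 0.0228 for WL2 against Pre). No fold is given against a phase at 0, the call was lost without Pre replicate 3, WL2 replicate 1 or WL2 replicate 3, and, as the counting is not stated to use strand, its reads cannot be told apart from those of *Rptor*, for whose opposite strand it is named.

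Of the genes below, 9 rose past Pre at WL2 and 53 stayed lower than Pre. *Gsta4* rose by 1.05 on the log2 scale (SE 0.21, adjusted p = 0.0126), a call lost without WL2 replicate 2 or 3. *Hif3a*, a hypoxia-inducible factor, held 3.01, 3.09 and 3.74 CPM at Pre, 2.44, 1.88 and 2.19 CPM at WL1 and 4.65, 6.51 and 14.1 CPM at WL2 (log2 fold change 1.36, adjusted p = 0.042), where WL2 replicate 3 lay far over the next library, and the call held in 1 of 9 fits with a library left out; without WL2 replicate 3 the log2 fold change was 0.77. *Gm10736*, a processed pseudogene, also rose (1.52, adjusted p = 0.0403), and shares its sequence with a parent gene, so that its count is uncertain. This call was lost in 6 of 9 fits with a library left out, and without WL2 replicate 3 the log2 fold change was 0.96. *Adrb3* rose by 0.97 (adjusted p = 0.0301), *Aldh6a1* by 0.61 (adjusted p = 0.0296) and *Asns*, which makes asparagine, by 0.51 (adjusted p = 0.0172). Leaving out a library ended these calls in 6, 4 and 3 of 9 fits.

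Among the genes that stayed lower, *Pnpla3* differed from Pre by -1.75 (SE 0.19, adjusted p = 0.000417) and *Odf3l1*, named for sperm tail fibres, by -2.34 (adjusted p = 0.000824). Both calls held with each library left out in turn. *Odf3l1* held 6.78, 6.72 and 8.91 CPM at Pre, 0.597, 1.29 and 1.18 CPM at WL1 and 1.42, 1.47 and 1.51 CPM at WL2. *Cacna2d3*, a calcium channel subunit, was lower at WL2 (log2 fold change -1.82, adjusted p = 0.0346), a call lost when any of the 6 Pre and WL2 libraries was left out. *Thrsp* and *Rbp4* also stayed lower (-0.70 and -0.72, adjusted p = 0.0246 and 0.0265), each lost without WL2 replicate 1, 2 or 3 or Pre replicate 1, and *Rbp4* without Pre replicate 2 as well. *Cyp2e1* at -0.68 (interval -1.22 to -0.13, adjusted p = 0.112) and *Retn* at -0.35 (interval -0.86 to 0.17, adjusted p = 0.369) did not pass the test. For *Ivd* the interval was -0.10 to 0.60, and for *Mccc2* it was -0.30 to 0.25 (adjusted p = 0.347 and 0.909).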

How the data were processed

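RNA from epididymal adipose tissue was sequenced in 9 libraries, 3 per phase. The deposited table holds read counts and FPKM per gene, which the authors made from their reads; HISAT2, HISAT, TopHat2 and CASAVA and the builds GRCm38 and mm10 appear in the submitters' processing notes without a stated role. The counter, its strand setting and the annotation were not given in the sources used here. All count columns matched a library by name, and 0 matched no sample. Per library, 16434450 to 22729072 reads were counted, and the ratio of chi-square to degrees of freedom between replicates was 9.13 to 48.9, so no libraries were duplicates.

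Genes of the count table were kept if they reached 0.5 CPM in 1 or more libraries (18510 of 56748). The separation rule was applied to log2 CPM with TMM factors (0.933 to 1.06) and a prior count of 4. One edgeR 4.0.16 quasi-likelihood model over the 9 libraries (R 4.3.3) gave the contrasts, with Benjamini-Hochberg adjustment over all genes tested and a threshold of 0.05. Alternatives were DESeq2 1.42.0, RLE factors, limma 3.58.1 on log2(FPKM + 1) and log2(FPKM + 0.1), library totals, other filters and prior counts, a replicate block and each library left out.

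The genes and lists were chosen with earlier results of these data known. Named genes were the 12 protein-coding genes with the largest contrast in each direction that passed it at 1 CPM or more, the 3 largest per list and per direction at WL2, up to 2 per list that passed the contrast without separating, those beside the edge of the rule, and 2 long noncoding genes per direction. Others named to show what a list holds were chosen after their values were seen. A gene that the rule names is not reported here. RefSeq promoters matched 1206 of 1523 protein-coding genes of the rule.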

Additional observations from a re-analysis of the deposited data

How the results depend on the processing

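The number of genes that met the rule held within 1.5 times under other scalings, filters and prior counts. It was 1177 above and 541 below with library totals (920 and 461 of them shared), and 967 and 736 from FPKM (946 and 635 shared). With 0.5 CPM in at least 3 libraries it was 872 and 765 (872 and 634 shared), so the balance of above and below moved with these choices. Leaving out a library, which relaxes the rule, gave 1143 to 1697 above and 721 to 1234 below. The TMM factors were computed again each time, and genes could also be lost. Without WL1 replicate 3, 988 of the 1059 genes above and 642 of the 649 below still met the rule. The numbers that passed the contrast moved more: DESeq2 gave 662 above and 417 below, limma on log2(FPKM + 1) gave 211 above and on log2(FPKM + 0.1) 162 above, and leaving out a library gave 3 to 568 above and 7 to 252 below, lowest without WL1 replicate 1 and highest without WL2 replicate 1. At WL2 against Pre, DESeq2 called 49 of the genes above, and leaving out a library gave 3 to 49 above and 22 to 53 below, lowest without WL2 replicate 2. The cause was not tested.

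Same-numbered libraries of different phases did not deviate together (correlations of -0.28 to 0.11 over 9 pairs, against -0.20 to 0.24 over 18 pairs of different numbers). These values gave no sign of pairing by number, but 3 libraries per phase are too few to exclude it. With the replicate number as a block, 109 genes above and 103 below passed the contrast, and 22 above and 38 below passed at WL2 against Pre.

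No value that was checked reversed its direction in any alternative run. The contrast was checked for named genes that met the rule or passed the contrast, and WL2 against Pre for those that passed that test. Genes named only to show what a list holds were not checked. With 3 libraries per phase, single calls at WL2 against Pre were often lost when 1 library was left out, in 100 such repeats, and kept in 197. Genes near 1 CPM carry wide counting error, and bulk RNA does not separate cell number from RNA per cell.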
